A study of Mus musculus with 2 samples.

Results

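The endothelial cells (ECs) compared here came from hearts of newborn mice carrying either iSuRe-HadCre or iSuRe-Cre, a pair of alleles that turn a brief activation of CreERT2 into a fluorescent membrane reporter and more Cre. A cell was taken when it had 2000 to 75000 UMIs of genes (unique molecular identifiers, each counting 1 captured RNA molecule), more than 500 genes, less than 5% of UMIs from mitochondrial genes and less than 5% from haemoglobin genes, when the natural log of 1 plus 10000 times its share of Cdh5 exceeded 0.9, and when 1 sample hashtag reached 25 UMIs (140 for that of iSuRe-Cre liver) while the other hashtags stayed under their minimum. Of 14350 cells within the quality limits, 7705 met the Cdh5 limit and 1988 of those carried 1 hashtag. The 2 groups compared held 311 iSuRe-HadCre and 435 iSuRe-Cre heart cells, 746 in all. Control heart gave 254 cells, and the liver groups gave 76 with iSuRe-HadCre, 858 with iSuRe-Cre and 54 in control.

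All 6 groups were loaded as 1 pool into 1 library and told apart by hashtagged antibodies. The pups were C57BL/6 and were 6 to 7 days old, 3 days after a single 40 mg/kg dose of 4-hydroxytamoxifen at postnatal day 3. CreERT2 was driven in ECs by Cdh5-CreERT2, and cells had been sorted as CD31+ MbTomato+. The labels write the genotype of the whole pool as Cdh5-CreERT2 with the HadCre allele and assign hashtags to iSuRe-HadCre, iSuRe-Cre and control, with no alleles for control. That both iSuRe groups also carried floxed Notch1 comes from the study's own description, not from the labels. How many pups stood behind a hashtag is not given in the sources used here. Each group is therefore 1 sample, so no difference could be checked against replicates or tested, and every interval below is a 95% interval that covers counting error only.

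In the iSuRe-Cre allele, recombination by CreERT2 starts permanent expression of MbTomato together with Cre, whereas iSuRe-HadCre first expresses Cre and FlpO and is then cut by FlpO, which removes both recombinases and leaves MbTomato. Cre can cut DNA at sites that resemble loxP, and broken DNA is known to raise p53 target genes such as Cdkn1a, while DNA in the cytosol is known to raise interferon-stimulated genes. Heart ECs line capillaries, arteries, veins and the chambers, and their arterial program is known to depend on Notch receptors and their ligands. The comparison addresses how the transcriptomes of ECs carrying the 2 alleles differ 3 days after induction. The allele, its site of insertion, its Cre, the pups and their sex cannot be told apart, since each allele is 1 group. Where both iSuRe groups differ from control, their lower Notch1 cannot be told apart from the alleles. Control cells also held reporter sequences, so control is not a level without a reporter allele. Fewer cells of a kind and less RNA per cell cannot be told apart in sums over cells either.

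Cells of the groups differed in depth and in makeup, which bears on every value below. The median cell held 7322 UMIs with iSuRe-HadCre, 16379 with iSuRe-Cre and 9100 in control heart, and the summed UMIs were 3102952, 8303637 and 3030031. Levels are therefore given as CPM, the summed UMIs of a gene per 1000000 UMIs of its group. Cdh5, the vascular endothelial cadherin, was at 1251 CPM with iSuRe-HadCre, 975 with iSuRe-Cre and 1310 in control. A UMI of a Y-linked gene was found in 151 of 311 (48.6%), 385 of 435 (88.5%) and 75 of 254 (29.5%) cells, shares that are not matched for depth. The summed level of these genes was 159, 187 and 71.9 CPM, so the sex makeup of the groups may have differed. Gm26992, a gene of the X chromosome, was at 63.8, 5.42 and 61.7 CPM in the same order. It was found in 77 (24.8%), 14 (3.22%) and 91 (35.8%) cells, of which 16, 12 and 13 also held a Y-linked UMI. Xist was not among the genes counted. Among cells with a Y-linked UMI alone, the calls numbered 478 higher and 228 lower. They held 297 of the 342 higher genes (86.8%) and 156 of the 165 lower genes (94.5%) that could be compared there.

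Notch1, the floxed gene, was low with both alleles. It stood at 23.2 CPM with iSuRe-HadCre, 12.6 with iSuRe-Cre and 138 in control heart, with intervals of 18.2 to 29.2, 10.3 to 15.3 and 125 to 151. Both iSuRe groups lay well under control. Their own intervals did not overlap, at a ratio of 1.835 (1.34 to 2.50) from 72 and 105 UMIs. Over 20 alternative settings that ratio ran from 0.906 in cluster 5 to 8.01 in cluster 7, clusters described below. It was past 2 in 6 of them, so the difference between the alleles depended on the cells compared. A UMI of Notch1 was found in 12.9%, 13.6% and 70.5% of cells, and in 3.12%, 1.82% and 26.0% after thinning cells to equal depth. Whether the sequenced 3′ ends lie in the deleted part of Notch1 was not established here. The reporter's WPRE element was at 1055 CPM with iSuRe-HadCre, 63.5 with iSuRe-Cre and 562 in control, and Tomato at 269, 25.5 and 97.7. Of the polyA sequences of the transgenes, Bgh-pA was at 119, 21.7 and 71.0 CPM. Sv40-pA had the opposite order, at 31.3, 148 and 72.3. Whether WPRE and Tomato measure the reporter equally well in both alleles was not tested. A UMI of Tomato was found in 78.5%, 32.0% and 56.3% of cells, shares not matched for depth. The study also removed cells with WPRE at or under 0.5 after log-normalization, a limit not applied to the main values here. It would have kept 292 of the 311 iSuRe-HadCre and 145 of the 435 iSuRe-Cre cells. Cre was at 36.7, 30.7 and 29.0 CPM. The iSuRe-HadCre to iSuRe-Cre ratio of Cre was 1.20 (0.951 to 1.50), an interval that includes 1. Reads of CreERT2 and of the alleles' own Cre cannot be told apart in that value.

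Over endogenous genes, 9310 of 21884 had at least 100 UMIs in the 2 groups together and were compared. A gene was counted as higher or lower at a CPM ratio of at least 2 or at most 0.5. With iSuRe-HadCre, 398 genes (4.27%) were higher and 172 (1.85%) were lower than with iSuRe-Cre. The intervals of all 570 left out a ratio of 1. At these depths that follows from the 2-fold limit and the minimum of 100 UMIs, so it adds no support to the calls. The median gene had a ratio of 1.14, a log2 ratio of 0.19, and the log2 values below are to be read against that shift. Dividing by it turned the balance to 219 higher and 255 lower. In 76 of the higher genes, more than 50% of the iSuRe-HadCre UMIs came from 5 cells, and the same held for the iSuRe-Cre UMIs of 38 of the lower genes.

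**Figure D1:**
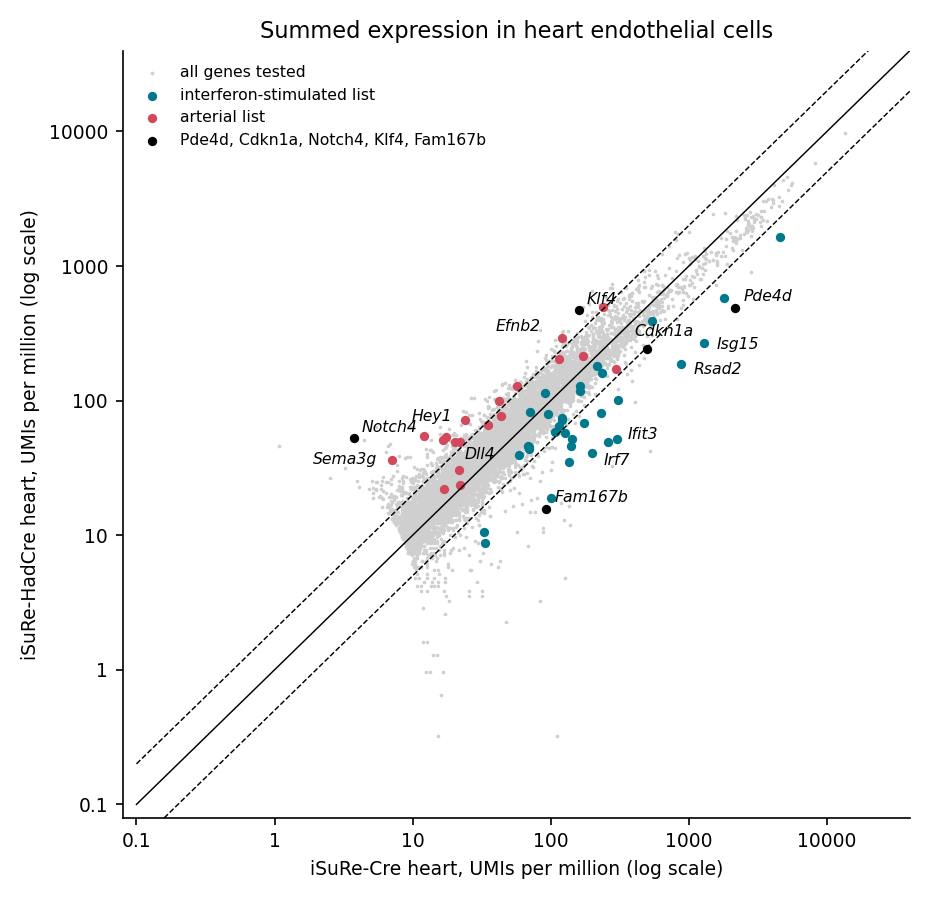
CPM of each of the 9310 genes compared, with iSuRe-Cre heart on the x axis and iSuRe-HadCre heart on the y axis, both on log scales. The solid line marks equal levels and the dashed lines a 2-fold difference. Interferon-stimulated genes (blue-green) lie below the lower dashed line in 17 of 33 cases and arterial genes (red) above the upper one in 11 of 19.

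Among the lists of genes that ECs express, interferon-stimulated genes had the lowest median ratio with iSuRe-HadCre. The 15 lowest single genes were mostly of other kinds, among them hepatocyte and mural genes carried by few cells, which are described further on. Interferon-stimulated genes are those switched on when secreted interferons bind their receptors. Isg15 (chr4:156199424-156200818, GRCm38), a ubiquitin-like modifier, was at 269 CPM (251 to 288) with iSuRe-HadCre, 1280 (1256 to 1305) with iSuRe-Cre and 152 (138 to 166) in control heart, 4.76-fold (4.44 to 5.12) lower with iSuRe-HadCre than with iSuRe-Cre. Of the 33 interferon-stimulated genes compared out of a list of 35, 17 were lower, against 1.85% of all genes, and 0 were higher. The median log2 ratio of the list was -1.13. Only Gbp4 and Irf1 of the 33 had a ratio above 1, at 1.16 and 1.25.

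Many promoters of this class hold the interferon-stimulated response element, which interferon regulatory factors bind. To show it, the promoter sequences of RefSeq (GRCm38.p6, 250 bases before to 50 after each gene's start) were searched on both strands for GAAANNGAAA, the core repeat of that element, whose reverse complement is TTTCNNTTTC. The stretches before the start of 5 lower genes are printed on the gene's strand, with the matches in capitals. Overlapping matches are merged into 1 run of capitals.
Isg15, chr4:156200850-156200921, minus strand: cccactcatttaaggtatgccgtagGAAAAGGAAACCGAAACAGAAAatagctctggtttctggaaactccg
Rsad2, chr12:26456538-26456597, minus strand: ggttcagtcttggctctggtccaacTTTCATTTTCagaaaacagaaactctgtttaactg
Ifit3, chr19:34583348-34583441, plus strand: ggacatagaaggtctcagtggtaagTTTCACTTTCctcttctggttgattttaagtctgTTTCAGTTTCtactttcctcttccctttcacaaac
Ifit1, chr19:34640760-34640838, plus strand: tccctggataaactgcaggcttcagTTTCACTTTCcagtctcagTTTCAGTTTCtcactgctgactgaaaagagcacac
Cxcl10, chr5:92349068-92349127, minus strand: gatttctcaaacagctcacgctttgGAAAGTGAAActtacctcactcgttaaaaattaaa

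The match in Isg15 began 78 bases before the start of the gene and that in Cxcl10 213 bases before it. Of all genes in the promoter table, 1079 of 27025 (3.99%) held a match. Of the interferon-stimulated list, 17 of the 25 genes with a promoter in the table did (68%). The lower members and those that were neither higher nor lower held it in 8 of 13 and 9 of 12 cases, so the match did not set the lower members apart. Among all genes compared, a match was in 26 of 131 lower genes (19.8%), 7 of 297 higher genes (2.36%) and 260 of 7063 others (3.68%). A match says only that these letters are in the window.

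The lower members included a regulator of the response and several of its effectors. Irf7, a transcription factor that amplifies the interferon response, was at 49.6 CPM with iSuRe-HadCre, 260 with iSuRe-Cre and 34.7 in control. Rsad2, which encodes viperin, an enzyme that makes a chain-terminating nucleotide, was at 187, 872 and 143. Ifit3, which belongs to a family that binds viral RNA, was at 51.9, 304 and 23.8. These 3 genes were 5.25-fold (4.46 to 6.22), 4.66-fold (4.28 to 5.08) and 5.87-fold (5.00 to 6.92) lower with iSuRe-HadCre. Further members of the IFIT family were lower too, with Ifit1 at 40.9, 198 and 27.4 CPM and Ifit2 at 101, 308 and 29.7.

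Members at a higher level were lower too. Ifitm3, a membrane protein that blocks the entry of viruses, was at 1653, 4607 and 1523 CPM in iSuRe-HadCre, iSuRe-Cre and control heart, 2.79-fold (2.71 to 2.87) lower with iSuRe-HadCre. Bst2, or tetherin, was at 575, 1785 and 430 CPM, 3.11-fold (2.96 to 3.27) lower. Of Usp18, which removes ISG15 from proteins and dampens the response, the levels were 35.1, 137 and 16.2 CPM. Gbp2, Gbp3, Gbp5 and Gbp7, guanylate-binding proteins that interferon gamma is known to induce, had ratios of 0.562, 0.595, 0.670 and 0.848 and were not counted as lower.

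Summed over the list, the level was 5001 CPM with iSuRe-HadCre, 13040 with iSuRe-Cre and 3419 in control heart. The median member was at 1.75 times its control level with iSuRe-HadCre and at 4.15 times with iSuRe-Cre. Both iSuRe groups, which also had lower Notch1, thus lay above the same control sample. The difference was spread over the cells. The 5 cells with most UMIs of the list held 10.2% of its UMIs with iSuRe-HadCre and 5.52% with iSuRe-Cre. Per cell, the summed list had a 10th percentile, median and 90th percentile of 1448, 4222 and 12848 CPM with iSuRe-HadCre, 3366, 10281 and 30107 with iSuRe-Cre, and 1250, 2922 and 6779 in control. The distributions overlapped, and the median iSuRe-Cre cell lay between the 75th percentile (7467 CPM) and the 90th of iSuRe-HadCre cells.

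A UMI of Isg15 was found in 59.8% of iSuRe-HadCre, 90.6% of iSuRe-Cre and 43.3% of control heart cells. After thinning each cell to 2000 UMIs these shares were 32.6%, 66.0% and 18.8%, in the same order. The 253 cells of the library rich in hepatocyte genes, a type that shares the free RNA but not the endothelial program, gave 36.4% before thinning, at a median of 5401 UMIs, and 17.7% after it, which was close to control heart. Hepatocytes can express Isg15 themselves.

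The list was also compared in cells of like depth, between 4000 and 16000 UMIs, where 15 of 32 genes were lower at a median log2 ratio of -0.96, and in cells with a Y-linked UMI, where 21 of 33 were lower at -1.27. With WPRE over 0.5 required 14 of 31 were lower at -0.82. Outside clusters 0, 1 and 10, in which iSuRe-Cre cells prevailed and of which cluster 0 was led by genes of this class, 13 of 33 were lower at -0.63. In the liver groups of the same library the list summed to 3581 CPM with iSuRe-HadCre, 6914 with iSuRe-Cre and 2210 in control. The order of the 3 groups was that of the heart, over 76, 858 and 54 cells.

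**Figure D2:**
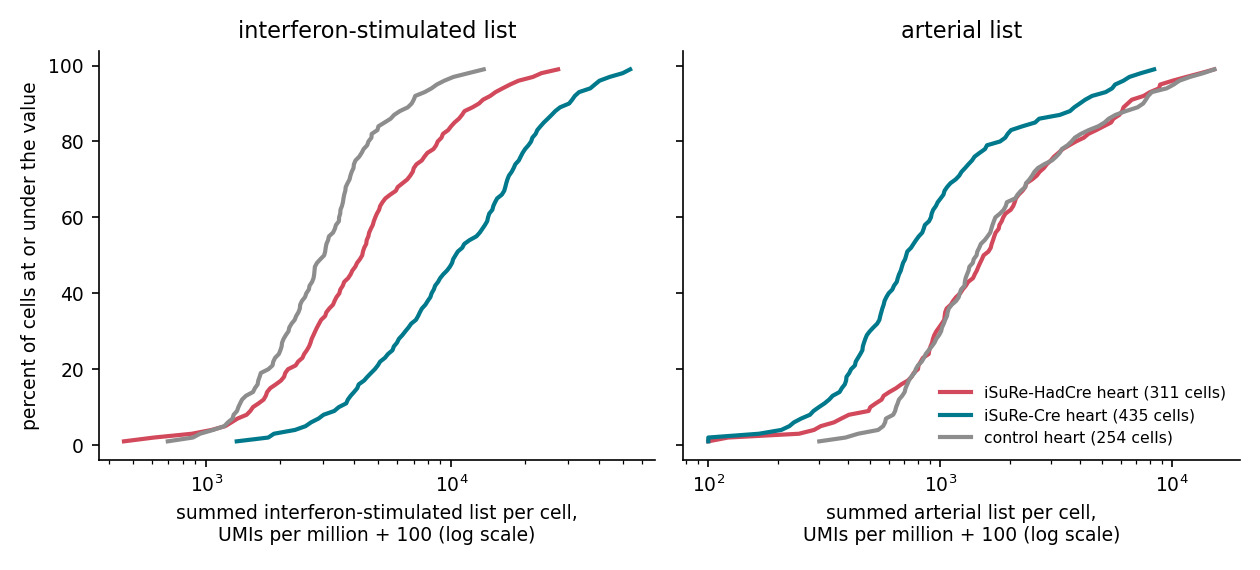
Share of cells (y axis, percentile of cells) whose summed CPM of the interferon-stimulated list (left) or arterial list (right) is at or below the value on the x axis (CPM plus 100, log scale), in the 3 heart groups. The curves are red for iSuRe-HadCre, blue-green for iSuRe-Cre and grey for control. The iSuRe-Cre curve lies to the right of the other 2 in the left panel, with a median cell at 10281 CPM, and to the left of them in the right panel, with a median cell at 613 CPM.

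Chemokines followed in part. Cxcl10, an interferon-induced attractant of T cells, was at 42.2 CPM with iSuRe-HadCre, 527 with iSuRe-Cre and 38.9 in control heart, 12.5-fold (10.5 to 15.0) lower with iSuRe-HadCre. It was found in 41 of 311 and 171 of 435 cells, and 46.6% of the iSuRe-HadCre UMIs were in 5 cells. Cxcl9, its close relative, was at 97.3, 404 and 19.5 CPM. Cxcl1, Ccl2 and Ccl5 were also lower, but Ccl5 had 95.7% of its iSuRe-Cre UMIs in 5 cells and Ccl2 79.8%. Of the 11 chemokines and chemokine receptors compared, 5 were lower and 1 was higher. The higher gene was Cxcl12, which guides arterial growth through Cxcr4, at 1806, 794 and 1283 CPM.

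Genes of antigen presentation by MHC class I shifted in the same direction by a smaller amount. Of 16 compared, 3 were lower and 0 higher, with a median log2 ratio of -0.60 against 0.19 for all genes. B2m, the light chain shared by class I molecules, was at 729 CPM with iSuRe-HadCre, 1569 with iSuRe-Cre and 459 in control. Psmb8, a subunit of the immunoproteasome, was at 159, 359 and 115, and H2-T22, a nonclassical class I gene, at 56.1, 127 and 43.9. The heavy chains H2-K1 and H2-D1 had ratios of 0.706 and 0.620. Outside clusters 0, 1 and 10, 0 of 15 genes were lower and the median was -0.11. The MHC class II genes Cd74 and H2-Aa, which are not in this list, went the other way, with ratios of 6.95 (5.09 to 9.61) and 5.59 (3.66 to 8.68). Few cells carried them. Cd74 was found in 30 iSuRe-HadCre and 22 iSuRe-Cre cells, with 54.1% and 59.6% of its UMIs in 5 cells. H2-Aa was found in 20 and 17 cells, with 66.2% and 64.7% in 5 cells.

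Cdkn1a (chr17:29090976-29100727, GRCm38), which encodes the cell cycle inhibitor p21 and is a direct target of p53, was at 244 CPM (227 to 262) with iSuRe-HadCre, 499 (484 to 515) with iSuRe-Cre and 161 (147 to 176) in control heart. Its ratio of 0.489 (0.452 to 0.528) lay just past the limit, and it was at most 0.5 in 13 of the 21 alternative settings, with a range of 0.375 to 0.609. It was therefore lower under iSuRe-HadCre in every setting tried but not always by 2-fold. In the liver groups the levels were 192, 228 and 176 CPM. A UMI was found in 49.8% of iSuRe-HadCre, 78.2% of iSuRe-Cre and 40.2% of control heart cells, or in 26.2%, 47.0% and 18.0% after thinning, against a thinned share of 12.1% in hepatocyte-rich cells.

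Of the p53 target list, 3 of 32 genes compared were lower, against 1.85% of all genes, and 0 were higher, with a median log2 ratio of -0.18 against 0.19 for all genes. The lower members numbered 8 after division by the median of ratios, 10 of 32 in cells with a Y-linked UMI and 0 of 24 in cells of like depth. The median log2 ratio of the list ranged from -0.92 in cluster 8 to 0.33 in cluster 10, so its direction was not stable. Besides Cdkn1a the 3 lower members of the whole groups were Rps27l, a ribosomal protein paralogue, at 402, 817 and 467 CPM, and Dcxr, an enzyme of sugar metabolism, at 13.9, 36.2 and 16.2. Bax, which starts apoptosis at mitochondria, was at 250, 496 and 280 CPM with a ratio of 0.504. Of these 4 genes only Cdkn1a was at a higher level with iSuRe-HadCre than in control. None of the 21 genes of the DNA damage response and repair list was higher or lower, and their median log2 ratio was 0.11.

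Among the 6 inhibitors of cyclin-dependent kinases compared, Cdkn1a and Cdkn3 (20.9, 44.4 and 10.2 CPM) were lower and Cdkn1c was higher. Cdkn1c, which encodes p57, was at 588 CPM with iSuRe-HadCre, 253 with iSuRe-Cre and 405 in control. The cell cycle lists held 0 called genes: 52 genes of G2 and M phase had a median log2 ratio of -0.16 and 38 genes of S phase one of 0.04. The direction of the G2 and M phase list depended on the cells. With WPRE over 0.5 required, 10 of 43 genes were higher at a median of 0.65, by the mean over cells 3 of 52 were lower at -0.56, and within clusters 5, 7, 8 and 10 the summed ratios were 1.19, 1.67, 1.18 and 1.27. Mki67, a marker of cycling cells, was at 174, 179 and 68.0 CPM, with an iSuRe-HadCre to iSuRe-Cre ratio of 0.972 (0.880 to 1.07). Within clusters 5 and 10 its ratios were 1.40 (1.13 to 1.72) and 1.50 (1.31 to 1.72), and cluster 10, which was led by cell cycle genes, held 23 and 96 cells. In clusters 7 and 8 Mki67 was at 57.2 and 63.8 CPM with iSuRe-HadCre against 2.23 and 6.22 with iSuRe-Cre. The iSuRe-Cre levels there rested on few UMIs, and the intervals of the ratios were wide, 3.98 to 1075 and 3.46 to 41.1. Summed over G2 and M phase the levels were 5149, 6000 and 3087 CPM, both iSuRe groups above control.

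**Figure D3:**
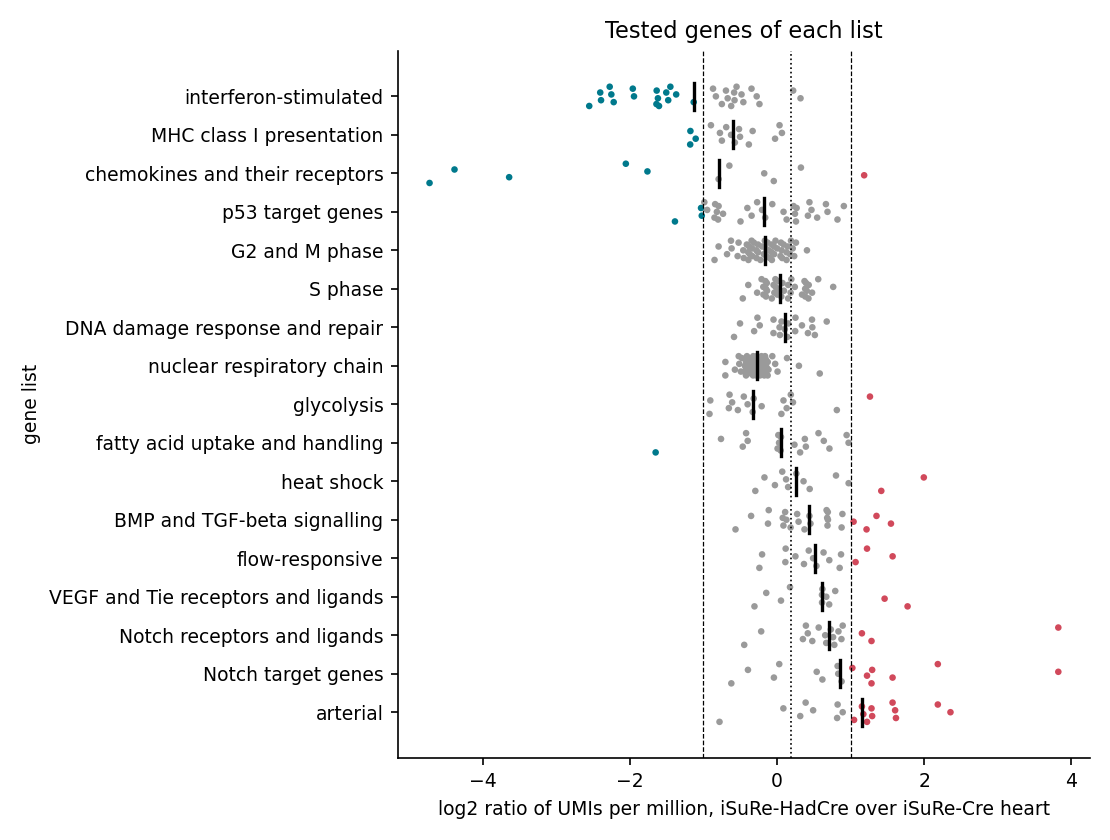
Log2 ratio of CPM, iSuRe-HadCre over iSuRe-Cre heart (x axis), of the genes compared in each list (y axis). Each point is a gene, the short black bar is the median of the list, the dotted line is the median of all genes (0.19) and the dashed lines mark a 2-fold difference. The interferon-stimulated list has the lowest median among the lists drawn (-1.13) and the arterial list the highest (1.15).

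Among the endothelial lists, arterial genes differed most in the other direction. Notch ligands on neighbouring cells activate Notch receptors in arterial ECs, and the cleaved receptor binds RBPJ and switches on Hey1, Efnb2 and further genes. Of a list of 24 arterial genes 19 could be compared, and 11 of them were higher with iSuRe-HadCre, against 4.27% of all genes, while 0 were lower. The median log2 ratio was 1.15. Eln was the only one of the 19 with a ratio under 1, at 0.582.

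Hey1 (chr3:8663359-8667256, GRCm38), a transcriptional repressor and Notch target, was at 54.8 CPM (46.9 to 63.7) with iSuRe-HadCre, 12.0 (9.80 to 14.6) with iSuRe-Cre and 50.2 (42.5 to 58.8) in control heart, 4.55-fold (3.53 to 5.88) higher with iSuRe-HadCre. The iSuRe-Cre sample alone stood apart, since the intervals of the other 2 overlapped. Sema3g, an arterial semaphorin, showed the same order at 36.4, 7.11 and 35.6 CPM, a ratio of 5.13 (3.71 to 7.15). Efnb2, the ephrin that marks arteries, was at 295, 120 and 241 CPM, a ratio of 2.45 (2.24 to 2.68).

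The gap junction gene Gja4, at 99.3, 42.5 and 119 CPM, and the netrin receptor Unc5b, at 71.5, 24.1 and 83.8, were also higher with iSuRe-HadCre than with iSuRe-Cre, with control near the former. So was Mecom, a transcription factor, at 495, 240 and 575 CPM. Gja5, the other arterial connexin, was at 24.5, 2.77 and 20.5 CPM but had 99 UMIs over both groups and so fell 1 short of the minimum for comparison. Clu and Nebl were higher with iSuRe-HadCre than in either other group, at 53.5, 17.6 and 18.2 CPM and at 50.6, 16.5 and 24.4 CPM. The sums over the list were 2241, 1316 and 2361 CPM, and the median cell held 1438, 613 and 1334 CPM.

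Of the receptors and ligands themselves, 3 of 18 were higher and 0 lower. Notch4, a receptor found mainly in ECs, was at 52.9 CPM (45.1 to 61.6) with iSuRe-HadCre, 3.73 (2.54 to 5.30) with iSuRe-Cre and 47.9 (40.4 to 56.3) in control heart, 14.2-fold (9.60 to 21.5) higher with iSuRe-HadCre. It was found in 108 of 311, 24 of 435 and 100 of 254 cells. In liver ECs it was at 35.1, 4.82 and 35.3 CPM, so the iSuRe-Cre sample was low in both organs. Its ratio stayed above 2 in each of 21 alternative settings, between 7.67 and 35.3. The gene lies at chr17:34564268-34588503 (GRCm38). According to the paper, the iSuRe-Cre transgene is on the same chromosome and iSuRe-HadCre is not. Whether the site of the transgene bears on the level of Notch4 was not tested.

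The next genes compared downstream of Notch4, Gpsm3 and Pbx2, had ratios of 0.845 and 1.10. These neighbours were chosen after their values were seen. The ligands Dll4 and Jag1 were at 49.0, 20.1 and 44.6 CPM and at 49.3, 22.2 and 53.5 CPM in iSuRe-HadCre, iSuRe-Cre and control heart. Notch2 (20.6, 12.2 and 14.9 CPM) and Rbpj (83.8, 63.8 and 74.6 CPM) were neither higher nor lower.

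Notch target genes overlap the arterial list. Of 16 compared, 7 were higher and 0 lower, with a median log2 ratio of 0.85. The direction of the summed list depended on the cells. In clusters 5 and 10, described below, its ratios were 0.931 (0.872 to 0.993) and 0.962 (0.883 to 1.05). In clusters 7 and 8 they were 1.46 and 1.21. Hes1, a target in many tissues, was at 202, 114 and 248 CPM, a ratio of 1.78, and Nrarp, a feedback inhibitor, at 50.9, 49.9 and 49.8, a ratio of 1.02. Both were therefore under the 2-fold limit, and the called members were those shared with the arterial list together with Notch4 and Bcl2. No gene of this list with a promoter in the table (14 genes) held the interferon motif, whereas 4 of 19 arterial genes did.

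**Figure D4:**
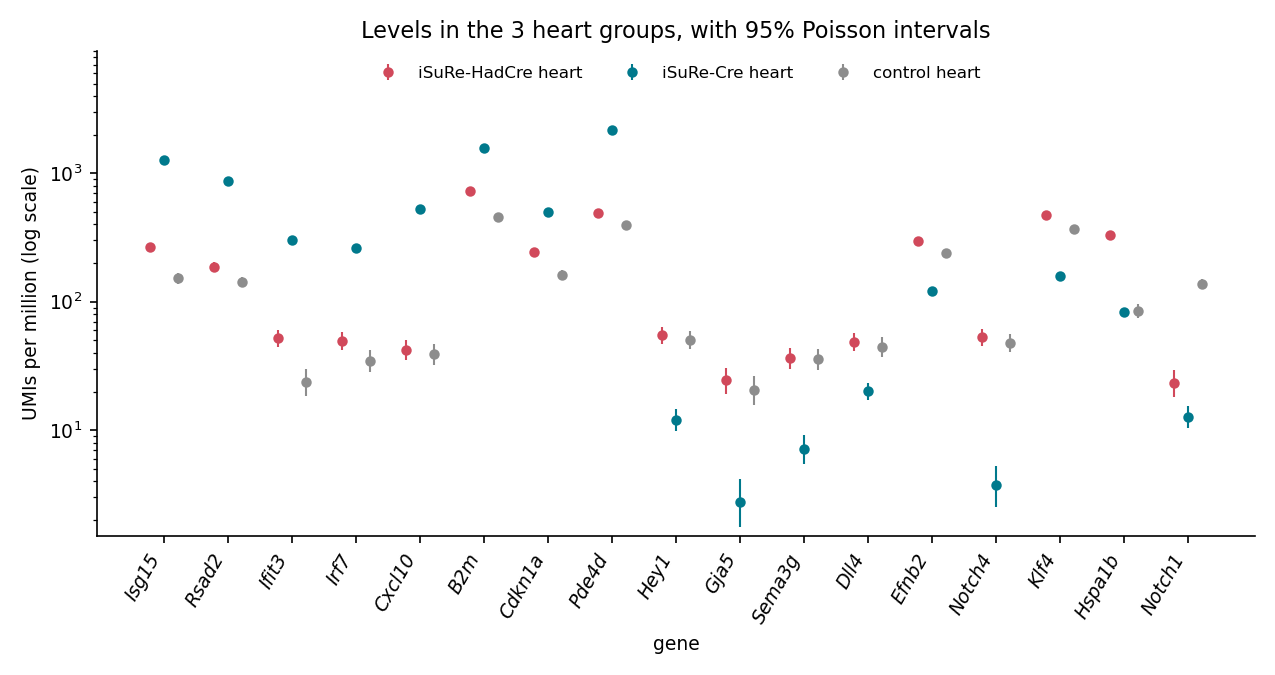
CPM (y axis, log scale) of 17 genes (x axis) in iSuRe-HadCre (red), iSuRe-Cre (blue-green) and control heart (grey), with exact 95% Poisson intervals as bars, 1 sample per group. The iSuRe-Cre level is above the other 2 from Isg15 to Pde4d and below them from Hey1 to Klf4, while Notch1 is highest in control at 138 CPM.

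The arterial list was also compared within clusters of cells, made from the expression of the 3 heart groups and therefore not independent of these genes. The 4 clusters with most cells of both groups were used. Cluster 4, with 96 iSuRe-HadCre and 3 iSuRe-Cre cells, could not be compared, so the makeup of the groups and the levels within cells cannot be told apart there. Cluster 5 was led by Gpc3, Afp and further genes of other cell types. In cluster 7, whose leading genes were arterial, 40 iSuRe-HadCre and 33 iSuRe-Cre cells had summed arterial levels of 8637 and 4324 CPM, a ratio of 2.00 (1.88 to 2.12), and a Hey1 ratio of 2.83 (1.78 to 4.59). In clusters 5, 8 and 10 the summed ratios were 1.19, 1.44 and 1.25. Fewer genes could be compared within each cluster. Those higher were 8 of 12 in cluster 7 and 2 of 9 in cluster 5. In clusters 8 and 10 they were 0 of 3 and 1 of 5. In the same order of clusters, 0, 1, 0 and 2 genes were lower. In cells of like depth 11 of 17 were higher at a median log2 ratio of 1.12, in cells with a Y-linked UMI 10 of 19 at 1.08, and outside clusters 0, 1 and 10 4 of 19 at 0.72. With WPRE over 0.5 required, which kept 292 iSuRe-HadCre and 145 iSuRe-Cre cells, 6 of 19 were higher and 1 lower at 0.70. The whole-group ratio of the sums, 1.70, was larger than the ratio in clusters 5, 8 and 10 and smaller than that in cluster 7.

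The summed interferon-stimulated list had ratios of 0.412, 0.521, 0.591 and 0.277 in clusters 5, 7, 8 and 10, and Isg15 ratios of 0.203, 0.393, 0.445 and 0.136, so its direction held in each. The number of cells was 46 and 55 in cluster 5, 41 and 35 in cluster 8, and 23 and 96 in cluster 10, iSuRe-HadCre first. Cdkn1a had ratios of 0.479, 0.422, 0.512 and 0.483 in the 4 clusters. Cxcl10 was the exception, with a ratio of 1.16 in cluster 8.

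Genes that respond to blood flow were at a higher level with iSuRe-HadCre in several cases. Klf4, a transcription factor induced by laminar flow, was at 473 CPM (449 to 498) with iSuRe-HadCre, 159 (151 to 168) with iSuRe-Cre and 367 (346 to 390) in control, 2.97-fold (2.76 to 3.20) higher with iSuRe-HadCre. Its relative Klf2 was at 933, 517 and 1277 CPM, a ratio of 1.80 (1.72 to 1.89), and Thbd, the anticoagulant thrombomodulin, at 88.6, 42.3 and 88.1. Of 16 flow-responsive genes 3 were higher and 0 lower (median log2 ratio 0.51). Klf4 also belongs to the immediate early genes, of which 4 of 23 were higher, the others being Fosl2, Nr4a1 and Nr4a2.

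Receptors and ligands of the VEGF and Tie families had a median log2 ratio of 0.61 over 12 genes, with 2 higher and 0 lower. After division by the median of genes of like span 1 was higher at a median of 0.13, and in cluster 5 0 of 9 were at 0.15. Vegfc, a ligand that drives lymphatic growth, was at 82.8, 24.2 and 125 CPM, and Ptprb, the phosphatase that restrains Tie2, at 525, 191 and 547. Kdr, the main VEGF receptor of ECs, was at 831 CPM with iSuRe-HadCre, 480 with iSuRe-Cre and 184 in control. Its order differed from that of the arterial genes, both iSuRe groups lying above control, and its ratio was 1.73 (1.65 to 1.82). Within clusters 7, 8 and 10 the ratio of Kdr was 0.809 (0.662 to 0.986), 1.57 and 1.71, so its direction turned in cluster 7, and in cluster 5 the interval of the ratio, 0.856 to 1.14, included 1. In liver the order of the alleles was the opposite, 411 and 771 CPM.

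BMP and TGF-beta genes had 4 of 25 higher and 0 lower. They were Ltbp4, which anchors latent TGF-beta in the matrix (234, 80.1 and 329 CPM), the inhibitory Smad6 (66.7, 26.1 and 37.6), Skil (139, 59.6 and 85.8) and the receptor Bmpr2 (264, 128 and 171). Epas1, a hypoxia-inducible factor, was at 327, 134 and 248 CPM. Against it, 4 of the 19 hypoxia genes were lower, among them the vasodilator Adm at 30.6, 100 and 29.4 CPM.

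Among capillary genes the fatty acid-binding proteins went against the rest. Fabp5 was at 896 CPM with iSuRe-HadCre, 2811 with iSuRe-Cre and 1913 in control, 3.14-fold (3.02 to 3.26) lower with iSuRe-HadCre. Fabp4, the main carrier of fatty acids in heart capillaries, was at 9772, 13495 and 18100 CPM, a ratio of 0.724 (0.715 to 0.733). The fatty acid transporter Cd36, at 1560, 810 and 2013 CPM, had a ratio of 1.93 (1.86 to 2.00). Both depended on the cells compared, since Cd36 had a ratio of 0.708 (0.619 to 0.807) in cluster 7 and Fabp4 one of 1.09 (1.05 to 1.12) in cluster 8. Of 19 capillary genes 2 were higher (Aqp7 and Timp4) and 1 lower, with a median log2 ratio of 0.71. The 75 nuclear genes of the respiratory chain held 0 called genes at a median log2 ratio of -0.27, and their sums were 19691, 24297 and 21498 CPM.

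Heat shock genes were split. The inducible Hsp70 genes Hspa1b (332, 83.3 and 84.8 CPM) and Hspa1a (327, 122 and 117) were higher with iSuRe-HadCre than in both other groups, while the other 11 of 13 heat shock genes were neither higher nor lower. The Hspa1b ratio was 3.99 (3.62 to 4.40). These genes are near-identical copies, so how reads were split between them is uncertain.

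Pde4d, a phosphodiesterase that breaks down cyclic AMP, was lower in the iSuRe-HadCre sample. It was at 492 CPM (467 to 517) with iSuRe-HadCre, 2164 (2132 to 2196) with iSuRe-Cre and 396 (374 to 419) in control heart, 4.40-fold lower with iSuRe-HadCre. In liver it was at 756, 2259 and 713 CPM. All 435 iSuRe-Cre cells held a UMI of Pde4d, against 215 of 311 iSuRe-HadCre and 180 of 254 control cells, and thinned to 2000 UMIs the shares were 97.6%, 43.1% and 36.6%. In hepatocyte-rich cells the thinned share was 75.8%, above that of the iSuRe-HadCre and control heart cells. Hepatocytes can express Pde4d themselves, so their share does not measure its background. The ratio stayed at or under 0.403 in each of 21 alternative settings. Pde4d spans chr13:108449948-109953461 (GRCm38), and its relative Pde4b had a ratio of 0.891.

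Fam167b, of unknown function, was at 15.8, 92.9 and 12.5 CPM in heart and at 127, 334 and 41.7 in liver. Fam167b, Adm, Dcxr, Kcne3 and Bax were among the leading genes of cluster 1, which held 14 iSuRe-HadCre and 87 iSuRe-Cre cells. At the other end, Rps18-ps6 was at 45.8, 1.08 and 2.31 CPM in heart and 46.9 and 2.14 CPM with iSuRe-HadCre and iSuRe-Cre in liver. It is a pseudogene of a ribosomal protein gene with near-identical copies, so its reads are uncertain.

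Over all genes with at least 20 UMIs in liver, 111 of the 395 genes higher in heart (28.1%) were at least 2-fold higher with iSuRe-HadCre in liver ECs too, against 443 of all 9295 (4.77%), and 68 of the 165 lower ones (41.2%) were lower there, against 361 (3.88%). The overlap is 25.1% of the 443 and 18.8% of the 361. Liver and heart ECs were other cells of the same library and may have come from the same pups.

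The higher genes were long. Their median genomic span was 93.9 kb, against 12.0 kb for lower genes and 27.6 kb for the others. The share of genes higher with iSuRe-HadCre was 2.11% under 10 kb, 2.24% from 10 to 30 kb, 3.43% from 30 to 100 kb and 12.4% from 100 kb, with median log2 ratios of -0.13, 0.06, 0.33 and 0.56. Genes of at least 100 kb took 18.3% of UMIs with iSuRe-HadCre, 12.3% with iSuRe-Cre and 14.9% in control, and genes of cytosolic ribosomal proteins 13.8%, 19.2% and 17.9%. The part of this shift in the counts of higher genes was not tested beyond a rescaling by span, which left 179 higher and 234 lower genes. The arterial calls were 2 of 5, 3 of 4, 4 of 8 and 2 of 2 in the 4 span classes, and 7 of 19 after the rescaling. The interferon-stimulated calls were 8 of 12, 8 of 16 and 1 of 5 in the first 3 classes.

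Markers of other cell types moved with a few of the largest differences. All 13 hepatocyte genes compared, of 17, were lower with iSuRe-HadCre, with sums of 158, 1149 and 185 CPM, but 89.9% of the iSuRe-Cre UMIs were in 5 cells, and none of the 17 was at 0 in both hearts. Of 9 mural genes compared 5 were lower (sums 208, 363 and 273 CPM), led by Rgs5 at 3.22, 83.3 and 8.91 CPM. Of 10 macrophage and leukocyte genes 3 were higher (sums 300, 169 and 210 CPM), with 77.0% of the UMIs in 5 cells in each group. Cardiomyocyte sums were 120, 125 and 147 CPM, and the lymphocyte genes Cd3e and Ms4a1 were at 0 in both hearts.

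Leaving out the 11 cells richest in such markers (2 and 9) left 17 of 33 interferon-stimulated genes lower at a median log2 ratio of -1.12 and 11 of 19 arterial genes higher at 1.15. Ccl21a, the lowest ratio of all, was in 5 iSuRe-Cre cells and 1 iSuRe-HadCre cell, and Ccl3, Ccl4, Epcam and Opcml, which were among the highest, had 93.8% to 100% of their iSuRe-HadCre UMIs in 5 cells. These genes describe a few cells and not the groups. Free RNA was estimated from hepatocyte genes at 2.01% of the UMIs of iSuRe-HadCre and 1.78% of iSuRe-Cre cells, and its subtraction left the list medians at -1.15 and 1.17.

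**Figure D5:**
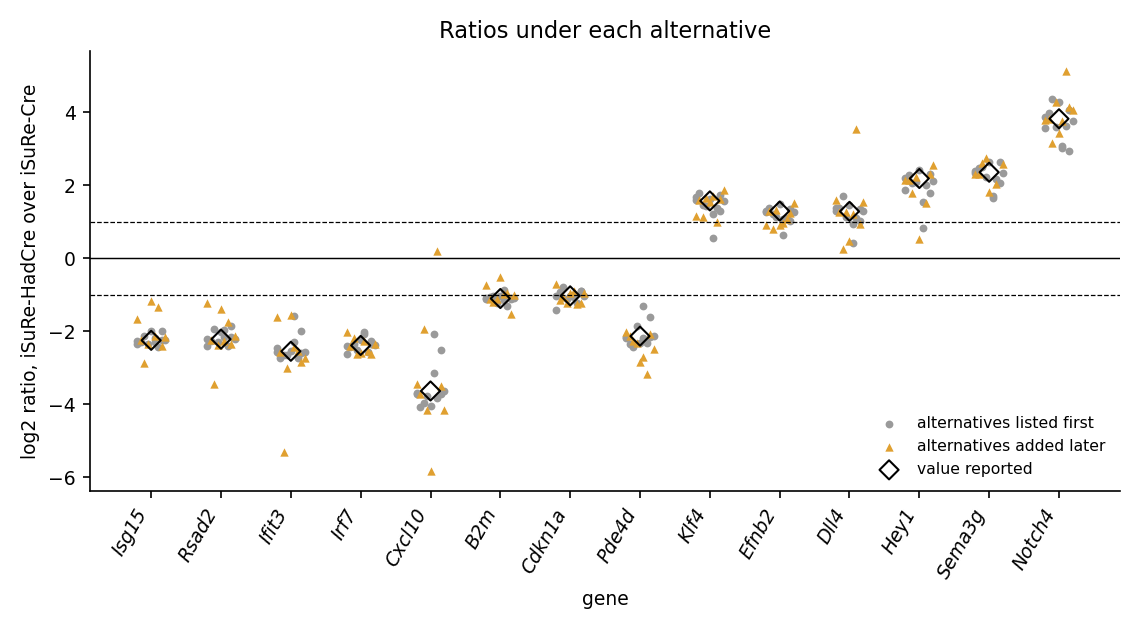
Log2 ratio of CPM, iSuRe-HadCre over iSuRe-Cre heart (y axis), of 14 genes (x axis) under each alternative setting (grey points, or triangles for settings added after seeing the data) and as reported (open diamonds). Isg15 stays between ratios of 0.136 and 0.445 and Notch4 between 7.67 and 35.3, whereas Cdkn1a, with a range of 0.375 to 0.609, lies on both sides of the 2-fold line.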

How the data were processed

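The deposited files held raw UMI counts per gene and per hashtag for each barcode of 1 pooled 10x library, which the authors made with Cell Ranger 7.1.0 on GRCm38 with transgene sequences added. No normalised values were used. Cells were chosen by the limits given above, the UMIs of each group were summed, and CPM and ratios were computed with exact Poisson and conditional 95% intervals (Python 3.11.15, scipy 1.17.1). Summed depth was 3102952 UMIs with iSuRe-HadCre and 8303637 with iSuRe-Cre. With 1 hashtagged sample per group no test was made. Clusters came from scanpy 1.11.5, doublets were taken as cells with 2 or more hashtags, and Scrublet and HTODemux (Seurat 5.3.0) served as alternatives. The computation was tested on simulated data.

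Genes named were the 15 highest and 15 lowest by the interval bound nearer to 1, up to 6 called members of each list by UMIs (otherwise up to 3 members with most UMIs) and 18 genes fixed by name. Further genes named were chosen after their values were seen. The cells, the gene lists and these rules were chosen with earlier results of these data known. Positions came from GENCODE M21 by gene ID, for 21830 of 21884 genes. Settings with cluster 5, 7, 8 or 10, without few-cell UMIs, without cells of another type, with Y-linked UMIs or by span were added after seeing the data, except for cluster 5 alone.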

Additional observations from a re-analysis of the deposited data

Results flagged for a closer look

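Opposite directions in liver and heart were looked for only among the highest and lowest genes in heart and the genes fixed by name. For 5 of these the ratio of iSuRe-HadCre to iSuRe-Cre in liver ECs lay on the other side of 1 from that in heart ECs. In these 5 genes both ratios were past 2-fold. The remaining called genes were not examined in this way. The difference between the organs was not tested, since each group is 1 sample.

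Ccl4, a chemokine of macrophages, had a ratio of 0.0575 in liver (1.46 and 25.5 CPM) and 11.5 in heart. Ccl3, its neighbour in function, had 0.124 in liver (1.46 and 11.8 CPM) and 10.6 in heart. All iSuRe-HadCre heart UMIs of both genes were in 5 cells or fewer, and their liver levels with iSuRe-HadCre rested on 1 UMI each.

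Ccbe1, which helps process Vegfc, had a ratio of 0.171 in liver and 9.71 in heart, and its liver level with iSuRe-HadCre also rested on 1 UMI. Epcam, an epithelial adhesion gene, had 0.362 in liver and 6.91 in heart. Ccl5, a chemokine of lymphocytes, went the other way, with 10.2 in liver (189 and 18.5 CPM) and 0.0379 in heart, where 95.7% of the iSuRe-Cre UMIs were in 5 cells.

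Outside the hashtags used here, the multiplexing oligo CMO302 had a median of 56 UMIs in the 5717 Cdh5 cells without a single hashtag, against 14 to 16 in the tagged groups. No group of this comparison was assigned by these oligos.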

How the results depend on the processing

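No paired analysis was possible because each group is 1 hashtagged sample and no model was fitted. The 14 planned and 9 added settings were applied to both counts and to 64 gene ratios, each where the gene had at least 20 UMIs. Against 398 higher genes there were 219 after division by the median of ratios, 2088 without a minimum of UMIs, 81, 86, 27 and 198 within clusters 5, 7, 8 and 10, and 179 both without clusters 0, 1 and 10 and after division by the median of genes of like span. Against 172 lower genes there were 91 when WPRE over 0.5 was required, 261 by the mean over cells, 606 without a minimum and 24 in cluster 7 as in cluster 8. With median of ratios the lower genes were 255, and with like span 234. Fewer cells, and so fewer genes compared, go with the cluster counts. For the other changes the cause was not tested. Without the 5 cells with most UMIs of each gene in each group, 3.30% of genes were higher and 3.29% lower, a lower share over 1.5 times that of 1.85% with all cells, and 279 of the 398 higher genes and 157 of the 172 lower genes were called again. With HTODemux, 168 of 392 higher genes (42.9%) and 102 of 163 lower genes (62.6%) were called again.

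Genes carried by few cells turned. With a hashtag minimum of 50 the ratios were Ccl4 0.161, Ccl3 0.299, Apoa2 1.16, Afp 1.90, Ttr 1.41 and Rbp4 1.14. With WPRE required they were Alb 1.14, Afp 1.81, Ttr 1.81 and Rbp4 1.13, and between 4000 and 16000 UMIs Alb 1.30, Afp 1.75 and Ttr 1.61. Without the top 5 cells they were Epcam 0.755, Opcml 0.993, Alb 1.13, Afp 1.93 and Ttr 1.47. Without cells rich in other markers they were Ccl4 0.147, Ccl3 0.378, Alb 1.27, Apoa2 1.01, Afp 2.21, Ttr 1.71 and Rbp4 1.16. Without cluster 5 they were Alb 1.58, Apoa2 1.01, Afp 2.91 and Ttr 1.64. Afp was at 2.80 in cluster 7, 5.20 in cluster 8 and 1.56 in cluster 10, where Ttr was at 2.46. In cluster 8 Cxcl10 was at 1.16 and Vegfc at 0.546.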

Other observations

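Interferon-responsive genes outside the list were chosen after their values were seen and add no support to the list. Of the Ifi200 family on chromosome 1, whose members bind DNA, Ifi204 was at 10.6 CPM with iSuRe-HadCre, 57.1 with iSuRe-Cre and 5.61 in control heart, and Ifi211 at 6.45, 42.6 and 2.31. Ifi206, Ifi207, Ifi208, Ifi209 and Ifi213 were lower with iSuRe-HadCre as well, while Ifi203, the most abundant of them at 194, 288 and 98.4 CPM, had a ratio of 0.673. Isg20, an RNA exonuclease, was at 17.4, 119 and 6.60 CPM, and Cmpk2, a mitochondrial nucleotide kinase next to Rsad2, at 36.1, 138 and 31.3. The receptors and sensors upstream did not pass 2-fold downwards. Ifnar1 was at 75.4, 52.6 and 67.3 CPM, Sting1 at 20.6 and 32.3 with iSuRe-HadCre and iSuRe-Cre, and Cgas at 12.6 and 17.7, while the adaptor Mavs was higher at 16.1, 6.74 and 12.2 CPM.

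The remaining endothelial lists held few called genes. Pan-endothelial genes had 1 of 27 higher (Ptprb) and 1 lower (Plvap, a protein of fenestrae and caveolae, at 20.6, 59.0 and 32.0 CPM), with Pecam1 at 860, 586 and 844 CPM. Venous genes had 1 of 13 higher and 3 lower at a median log2 ratio of -0.45. Endocardial genes had 1 of 15 higher (Tbx3, a transcription factor) and 1 lower at a median of -0.40, and Npr3, their best-known marker, was at 63.8, 104 and 59.4 CPM. Tip-cell genes had 2 of 23 higher and 2 lower, among the latter Kcne3, a potassium channel subunit, at 7.41, 32.4 and 19.8 CPM. Genes of collagens, laminins and integrins had 3 of 23 higher and 0 lower, with Itga1 at 275, 136 and 276 CPM. Myc growth targets had 1 of 21 higher (Mycn, at 104, 45.0 and 27.1 CPM) at a median of -0.29, and the integrated stress and unfolded protein response had 0 of 18 called.

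Pdgfd, a growth factor of mural cells and fibroblasts, was at 279, 80.6 and 226 CPM, and Akap6, an anchor of protein kinase A, at 63.2, 9.63 and 16.5. Both were among the leading genes of cluster 4, which held 96 iSuRe-HadCre and 3 iSuRe-Cre cells.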
